A study of Homo sapiens with 6 samples.

Results

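The immediate early transcription factors and the phosphatases and adaptors that restrain MAP kinases were followed as 37 genes of the 6018 in the authors' deposited table. Members were the rows whose symbol begins with JUN, FOS, EGR plus a digit, KLF, IER plus a digit, NR4A, DUSP, SPRY or SPRED, or is ZFP36, ZFP36L1 or ZFP36L2. Of the 37, 36 are protein-coding and 1, KLF3-AS1, is an antisense RNA, and the 2 pseudogenes with such names, KLF3P1 and DUSP8P5, were left out. The same rule finds 74 protein-coding genes in GENCODE release 29, of which 4 only share the letters (SPRYD3, SPRYD4, SPRYD7 and IER3IP1, none listed) and 70 belong to the families. Of these 70, 36 (51.4%) were listed, against 14.8% of all protein-coding genes in that release.

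Messenger levels were read by RNA sequencing from 3 libraries of C42-B-Abi and 3 of its parent C42B (C4-2B), a human prostate cancer line long in use that descends from LNCaP through C4-2. C42-B-Abi cells had been passaged in abiraterone raised from 1 to 20 µM for at least 6 months, were afterwards held at 5 µM, and carry passage numbers of 15 to 18. C42B cells were carried alongside in 1% DMSO and are given as passage 0, so passage and cell line cannot be told apart. Both lines grew in 10% serum, which itself feeds growth factor signalling, and the protocol's mention of 10 µM abiraterone before RNA extraction does not say whether both lines received it. Abiraterone inhibits CYP17A1, an enzyme of androgen synthesis. The subline is 1 selected population, and the comparison that the design implies asks how its expression differs from that of the parent.

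The table has no value per library and compares a condition C with a condition V, so depth per library is unknown. Its header reads C as control and V as vehicle and states that a negative log2 fold change marks higher expression in V. The titles of the parental libraries carry a V, by which C would be the selected subline, but the header ties neither letter to a line. Directions are therefore stated by letter alone. A gene's values are its log2 fold change (C over V) and, after ±, the standard error, from the authors' DESeq2 run, and an interval is the fold change ± 1.96 standard errors. Genes count as called below an adjusted p of 0.05 (the authors' Wald test with Benjamini-Hochberg correction). Levels in C and V are normalised counts worked back from mean and fold change, assuming equal numbers of libraries, and have no error of their own. The table holds only genes with p under 0.05 whose log2 fold change reached 1.20 in size, so an unlisted gene may have missed either limit. In these bulk libraries, fewer cells that express a gene and less RNA per cell cannot be told apart.

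Immediate early genes are the set that cells switch on within minutes of a growth factor, stress or cytokine signal, without first making new protein. Signals through the ERK, JNK and p38 MAP kinases reach, directly or through other kinases, factors already sitting on their promoters. Such factors are SRF and the ternary complex factors on serum response elements (CArG boxes), and CREB or ATF factors on cyclic AMP response elements (CREs). The products include AP-1 subunits and zinc finger factors that drive a later wave of transcription. They also include the brakes: phosphatases that inactivate the MAP kinases, Sprouty and SPRED proteins that block RAS activation, and ZFP36 proteins that bind AU-rich elements and speed the decay of the same short-lived messages. In prostate epithelium, AP-1, EGR and KLF factors are known for roles in proliferation, differentiation and stress.

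Promoters of 5 members that carry the direction of the group are shown first, because the sequence there is what the name rule did not use. They are RefSeq windows on GRCh38.p14 from 250 bases before to 50 bases after the start, written 5′ to 3′ on the gene's strand. Capitals mark CArG boxes, the CRE core TGACG or its reverse complement, and the TATA box TATAAA.
EGR1, chr5:138465229-138465528, plus strand: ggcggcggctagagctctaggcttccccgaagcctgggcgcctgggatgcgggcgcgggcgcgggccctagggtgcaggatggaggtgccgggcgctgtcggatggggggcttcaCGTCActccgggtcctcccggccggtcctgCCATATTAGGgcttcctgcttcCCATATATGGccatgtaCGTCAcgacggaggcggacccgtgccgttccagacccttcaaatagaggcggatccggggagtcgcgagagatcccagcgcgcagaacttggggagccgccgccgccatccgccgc
FOS, chr14:75278578-75278877, plus strand: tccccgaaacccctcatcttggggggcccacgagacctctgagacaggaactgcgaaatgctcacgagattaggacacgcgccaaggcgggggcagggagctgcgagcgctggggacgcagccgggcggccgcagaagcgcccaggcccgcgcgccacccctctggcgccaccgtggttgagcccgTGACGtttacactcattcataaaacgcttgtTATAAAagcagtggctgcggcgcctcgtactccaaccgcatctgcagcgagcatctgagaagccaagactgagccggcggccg
JUNB, chr19:12791236-12791535, plus strand: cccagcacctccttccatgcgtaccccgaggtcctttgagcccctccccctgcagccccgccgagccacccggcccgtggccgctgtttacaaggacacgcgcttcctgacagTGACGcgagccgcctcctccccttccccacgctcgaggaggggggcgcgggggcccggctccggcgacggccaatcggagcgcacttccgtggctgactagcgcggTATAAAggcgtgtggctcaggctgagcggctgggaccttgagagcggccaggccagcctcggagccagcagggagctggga
DUSP1, chr5:172771146-172771445, minus strand: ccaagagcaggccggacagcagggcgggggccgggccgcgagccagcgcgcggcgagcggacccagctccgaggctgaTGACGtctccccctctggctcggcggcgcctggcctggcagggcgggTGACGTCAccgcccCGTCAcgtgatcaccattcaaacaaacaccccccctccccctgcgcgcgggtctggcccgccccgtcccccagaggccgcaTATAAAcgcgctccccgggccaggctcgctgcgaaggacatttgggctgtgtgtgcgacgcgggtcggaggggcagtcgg
KLF4, chr9:107489720-107490019, minus strand: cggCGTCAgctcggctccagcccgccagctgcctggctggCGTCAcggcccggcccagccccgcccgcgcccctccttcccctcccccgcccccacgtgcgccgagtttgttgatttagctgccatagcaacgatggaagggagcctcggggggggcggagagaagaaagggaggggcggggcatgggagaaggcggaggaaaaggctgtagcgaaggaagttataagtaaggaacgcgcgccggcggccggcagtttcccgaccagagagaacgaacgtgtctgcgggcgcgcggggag

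The EGR1 window holds 2 CArG boxes, which begin 105 and 83 bases before the start, and 2 CRE cores. FOS, JUNB and DUSP1 each hold a TATA box, beginning 33, 31 and 30 bases before the start. DUSP1 has 1 full CRE, the palindrome TGACGTCA, in which the core reads on both strands from 125 bases before the start. KLF4 has 2 CRE cores, the farther of them 247 bases before the start, and neither a CArG box nor a TATA box in this window. All 5 genes were higher in V. The 5 do not stand for all such members: each holds the CRE core, present for 64.0% of members called higher in V with a window. TATAAA, held by FOS, JUNB and DUSP1, was in 14.8% of the windows of members higher in V.

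Of the 37 members, 35 were called, 3 of them higher in C and 32 higher in V. Among all listed genes 89.4% were called, 46.0% toward C and 43.4% toward V. Among listed protein-coding genes, which are the closer comparison, 92.6% were called, 31.6% toward C and 61.0% toward V. Of the 36 protein-coding members, 3 were called on the C side and 31, or 86.1%, on the V side. IER3 and DUSP26 were the 2 members not called. The 3 called members higher in C were DUSP4, DUSP9 and KLF12.

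Over all called protein-coding members the median log2 fold change was -2.37, against -1.54 over the 2702 other called protein-coding genes. Within the genes higher in V the medians lay close together. The 31 protein-coding members higher in V had a median log2 fold change of -2.41, with quartiles of -3.75 and -1.72. The other 1771 protein-coding genes called higher in V had a median of -2.35, with quartiles of -4.15 and -1.57. The members were measured at higher levels than these other genes: 67.7% had a listed mean of at least 100 normalised counts, against 43.1%, and their median standard error was 0.18 against 0.33. Family by family, all called members were higher in V in 7 of the 9 families with any call (JUN, FOS, EGR, IER, NR4A, ZFP36 and SPRY). Of these, SPRY had 1 called gene, and EGR and NR4A had 2 each. Among other called protein-coding genes 65.5% were higher in V, so a family of 1 or 2 called genes adds little to this count. The KLF and DUSP families had calls on both sides. Median log2 fold changes of called protein-coding members were -1.71 for JUN and -1.88 for IER. The medians of -1.86 for KLF and -1.59 for DUSP pool both directions, so they are not like those of the families with 1 direction. Medians were -2.79 for FOS, -3.06 for ZFP36, -3.69 for NR4A and -4.68 for EGR. The last 2 come from a pair of genes each, with low levels in C and wide errors, so their place in the order is poorly determined. SPRED1, SPRED2 and SPRED3, adaptors that block RAS to RAF signalling, were not listed. For reading the family counts below, 14.8% of all protein-coding genes were listed. Of the listed ones, 92.6% were called, 31.6% toward C and 61.0% toward V.

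**Figure D1:**
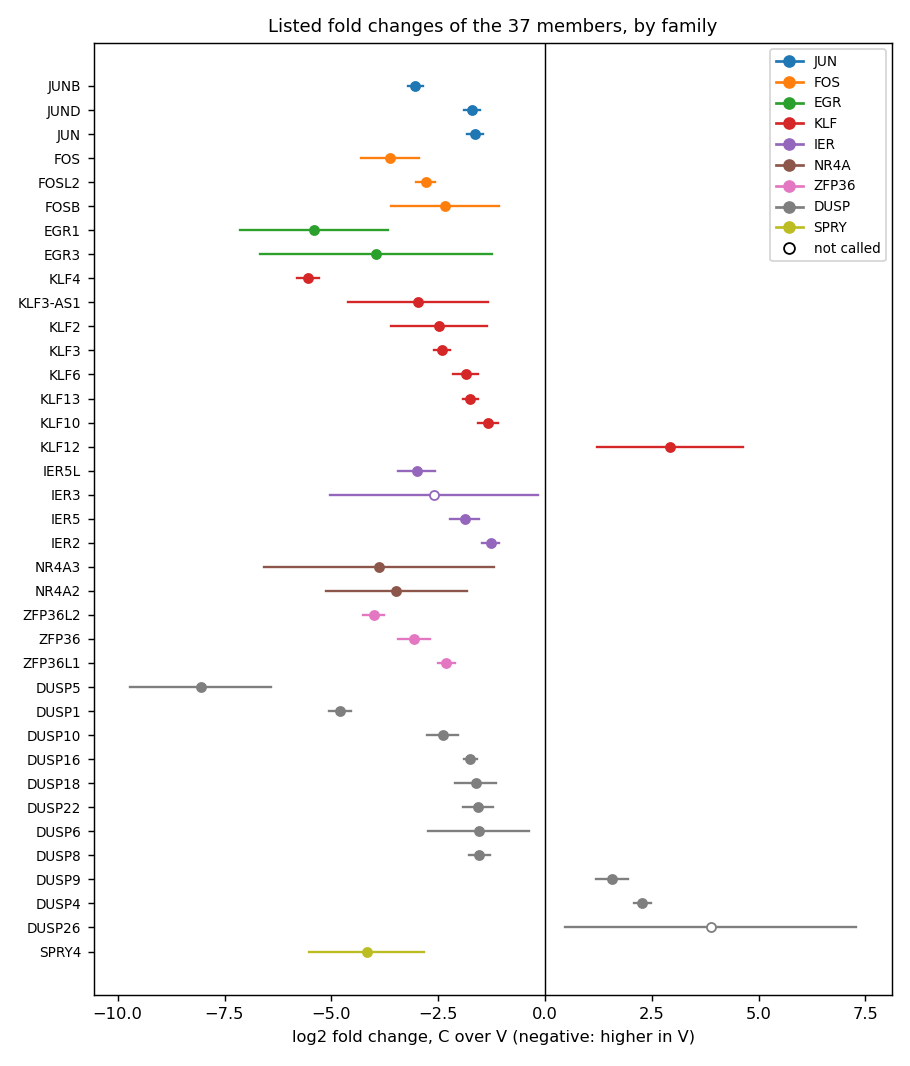
Listed log2 fold change of C over V for the 37 members, ordered by family and coloured by it. Points are the authors' estimates, lines the fold change ± 1.96 standard errors, and open points the 2 genes not called; DUSP4, DUSP9, DUSP26 and KLF12 lie right of 0 and the other 33 genes left of it.

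The JUN family, the AP-1 subunits that can pair with each other or with FOS proteins, was listed and called in full. JUNB, on chromosome 19 at 12791496 to 12793315 (GENCODE release 29, GRCh38), had derived levels of 291 normalised counts in C and 2375 in V. Its fold change in the authors' deposited table was -3.03 ± 0.09 (adjusted p = 1.02e-221, DESeq2). JUND, the subunit usually held at steady levels, stood at 454 in C and 1480 in V, with -1.71 ± 0.10 in the authors' deposited table. JUN itself, the main target of JNK, stood at 284 in C and 883 in V, with -1.64 ± 0.10 in the same table. The intervals of JUN (-1.83 to -1.44) and JUND (-1.89 to -1.52) overlapped, and that of JUNB (-3.22 to -2.85) lay apart from both. Counted per kilobase of exon, the derived level of the family summed to 483 in C and 2350 in V. JUNB made up 33.0% of that sum in C and 55.6% in V, and JUND 50.4% in C and 33.8% in V. JUND was thus the first of the family by level per kilobase in C, and JUNB in V.

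The FOS family supplies partners that need a JUN protein to bind DNA. FOS, the founding member, had derived levels of 11.9 normalised counts in C and 146 in V, and a fold change of -3.62 ± 0.35 in the authors' deposited table (adjusted p = 1.93e-24, DESeq2). FOSL2, which encodes the longer-lived subunit FRA2, stood at 165 in C and 1147 in V, with -2.79 ± 0.11 in the authors' deposited table. FOSB was low on both sides, at 3.60 in C and 18.2 in V, with -2.34 ± 0.64 in the same table. The interval of FOSB (-3.60 to -1.08) overlapped both others widely, and those of FOS (-4.29 to -2.94) and FOSL2 (-3.01 to -2.58) met only at their ends. By level per kilobase of exon, FOSL2 made up 84.2% of the listed FOS family in C and 76.8% in V, and FOS 13.4% in C and 21.6% in V. FOSL1, which encodes FRA1, was not listed.

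The EGR and NR4A genes had low levels in C and wide errors, and all but EGR1 were low in V too. EGR1, a zinc finger factor induced by ERK through its serum response elements, had derived levels of 1.64 normalised counts in C and 69.8 in V. Its fold change in the authors' deposited table was -5.41 ± 0.88 (adjusted p = 6.09e-09, DESeq2), and its interval ran from -7.14 to -3.68. EGR3, a relative with the same zinc finger domain, had only 0.443 in C and 6.84 in V, with -3.95 ± 1.39 in the same table. NR4A2 and NR4A3, orphan nuclear receptors that act without a known hormone, had -3.48 ± 0.84 and -3.89 ± 1.37 in the authors' deposited table. NR4A2 stood at 1.67 in C and 18.6 in V. NR4A3 stood at 0.425 in C and 6.31 in V. EGR3 and NR4A3 lay below 1 normalised count in C, which leaves the size of their fold changes poorly determined. EGR2, EGR4 and NR4A1 were not listed.

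The Krüppel-like factors, zinc finger proteins that bind GC-rich boxes, had 7 called protein-coding members of 18 in the annotation, 1 higher in C and 6 higher in V. KLF4, a regulator of epithelial differentiation on chromosome 9 at 107484852 to 107490482 (GENCODE release 29, GRCh38), had derived levels of 49.4 normalised counts in C and 2295 in V. Its fold change in the authors' deposited table was -5.54 ± 0.13, with p and adjusted p printed as 0. Its Wald statistic ranked 12 by size among all called protein-coding genes. The interval of KLF4 (-5.80 to -5.28) did not overlap that of any other KLF gene. Per kilobase of exon, KLF4 made up 9.26% of the summed level of the called KLF genes in C and 56.6% in V.

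The other protein-coding KLF genes higher in V had log2 fold changes from -2.47 to -1.34 in the authors' deposited table. KLF3, a repressor that recruits CtBP, stood at 290 normalised counts in C and 1537 in V, with -2.41 ± 0.09 in the authors' deposited table. KLF2, best known from endothelium and T cells, was low at 4.75 in C and 26.3 in V, with -2.47 ± 0.57 in that table. KLF6, a factor that is widely induced by injury and serum, stood at 76.3 in C and 276 in V, with -1.86 ± 0.15. KLF13 stood at 262 in C and 876 in V, with -1.74 ± 0.09, and KLF10, a gene induced early by TGF-beta, at 133 in C and 337 in V, with -1.34 ± 0.12, all 3 from the authors' deposited table. The interval of KLF3 lay below those of KLF6, KLF13 and KLF10, whereas the wide interval of KLF2 overlapped all of these. KLF12, a repressor first described as binding the promoter of an AP-2 gene, went the other way, with 114 in C and 14.9 in V; the authors' deposited table gave it 2.93 ± 0.87 (adjusted p = 0.00234, DESeq2). The remaining 11 KLF genes, KLF5 and KLF9 among them, were not listed.

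KLF3 is the one gene of the group with an antisense member beside it. KLF3-AS1 was listed at -2.97 ± 0.84 in the authors' deposited table, with derived levels of 1.95 in C and 15.3 in V. The genes overlap by 688 bases on opposite strands, and whether reads were counted by strand is not given in the sources used here, so their reads cannot be fully told apart. The pseudogene KLF3P1, not a member, was also called toward V (-2.26 ± 0.44 in the authors' deposited table), at 6.86 in C and 32.7 in V, and how reads were divided between copy and parent is uncertain.

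**Figure D2:**
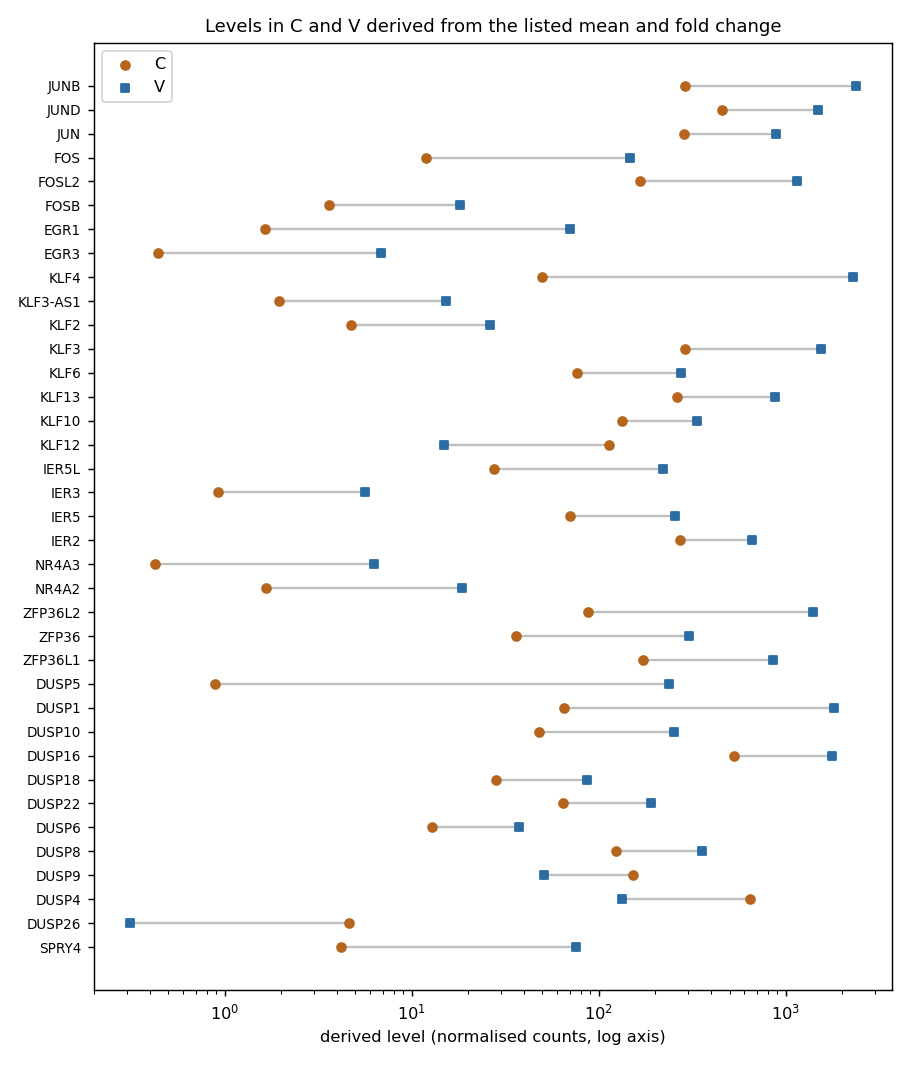
Derived levels of the 37 members in C (circles) and V (squares) in normalised counts on a log axis, by family. KLF4, JUNB and DUSP1 lie at 1808 or more in V, and DUSP5, EGR3, NR4A3 and IER3 lie under 1 in C.

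The IER genes, short early-response genes with few introns, were all listed, and 3 of 4 were called, all higher in V. IER5L had derived levels of 27.5 normalised counts in C and 220 in V, with -3.00 ± 0.22 in the authors' deposited table. IER5, a regulator of heat shock factor HSF1, stood at 69.8 in C and 257 in V, with -1.88 ± 0.18 in that table. IER2 was the highest of them by level per kilobase on both sides and had the smallest change, -1.27 ± 0.10 in the authors' deposited table, at 271 in C and 655 in V. The 3 intervals did not overlap. IER3, which modulates ERK signalling and survival, was listed at -2.60 ± 1.24 in the authors' deposited table with an adjusted p of 0.0777 (DESeq2), at 0.926 in C and 5.63 in V, and was not called.

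The ZFP36 genes, whose products bind AU-rich elements and bring deadenylases to the message, were all called and all higher in V. ZFP36L2 had derived levels of 87.4 normalised counts in C and 1404 in V, with -4.01 ± 0.13 in the authors' deposited table (adjusted p = 1.25e-216, DESeq2). ZFP36, which encodes tristetraprolin, stood at 36.2 in C and 303 in V, with -3.06 ± 0.19 in that table. ZFP36L1 stood at 172 in C and 848 in V, with -2.31 ± 0.10 in that table. The 3 intervals did not overlap, which orders the family as ZFP36L2, ZFP36 and ZFP36L1 by size of change. Per kilobase of exon, ZFP36L1 led the family in C with 44.4% of the sum against 23.7% in V, and ZFP36L2 made up 31.5% in C and 54.6% in V.

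The DUSP genes had calls on both sides. Of the 10 genes that encode the MAP kinase phosphatases proper, 8 were listed and all 8 were called, 2 toward C and 6 toward V. Of the 14 other DUSP genes, 3 were listed and 2 were called, both higher in V. These counts stand beside 92.6% of all listed protein-coding genes called, 31.6% toward C and 61.0% toward V. Among the nuclear, inducible phosphatases, DUSP1, which inactivates p38 and JNK as well as ERK, had derived levels of 65.3 normalised counts in C and 1808 in V. Its fold change in the authors' deposited table was -4.79 ± 0.13 (adjusted p = 3.91e-297, DESeq2). DUSP5, which is specific for ERK, stood at 0.888 in C and 237 in V, with -8.06 ± 0.84 in the authors' deposited table. With less than 1 normalised count in C, the size of that change is poorly determined. DUSP4, of the same nuclear class, was opposite, at 645 in C and 133 in V, with 2.28 ± 0.10 in the authors' deposited table (adjusted p = 1.14e-110, DESeq2). The 3 intervals of DUSP5, DUSP1 and DUSP4 were separate, and DUSP2, the remaining gene of the class, was not listed.

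The cytoplasmic ERK phosphatases also had calls on both sides. DUSP9 stood at 152 normalised counts in C and 51.2 in V, with 1.57 ± 0.19 in the authors' deposited table. DUSP6, a direct readout of ERK activity in many tissues, was low at 12.8 in C and 37.6 in V, with -1.56 ± 0.60 and an adjusted p of 0.0247 (DESeq2) in that table. DUSP7 was not listed. The phosphatases that prefer JNK and p38 were all called higher in V. DUSP10 stood at 48.1 in C and 252 in V, with -2.39 ± 0.18 in the authors' deposited table. DUSP16 stood at 525 in C and 1763 in V, with -1.75 ± 0.08 in that table. DUSP8 stood at 123 in C and 357 in V, with -1.54 ± 0.13 in that table. The pseudogene DUSP8P5 was called in the same direction in the authors' deposited table (-1.45 ± 0.29), and how reads were divided between it and DUSP8 is uncertain. DUSP10 changed more than DUSP16 and DUSP8, whose intervals overlapped each other.

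Summed per kilobase of exon, the 8 called MAP kinase phosphatase genes came to 314 in C and 1500 in V. In C, DUSP16 (29.2%), DUSP4 (28.3%) and DUSP9 (17.5%) led, against 20.5%, 1.22% and 1.23% in V. DUSP1 made up 10.3% in C and 59.6% in V. The atypical phosphatases DUSP18 and DUSP22 had -1.63 ± 0.25 and -1.56 ± 0.18 in the authors' deposited table, both with derived levels under 200 on either side. DUSP26 was listed at 3.88 ± 1.74 in that table with an adjusted p of 0.057 (DESeq2), at 4.59 in C and 0.312 in V, and was not called. SPRY4, the Sprouty gene that was listed, stood at 4.20 in C and 75.5 in V, with -4.17 ± 0.69 in the authors' deposited table (adjusted p = 7.53e-09, DESeq2). SPRY1, SPRY2 and SPRY3 were not listed.

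**Figure D3:**
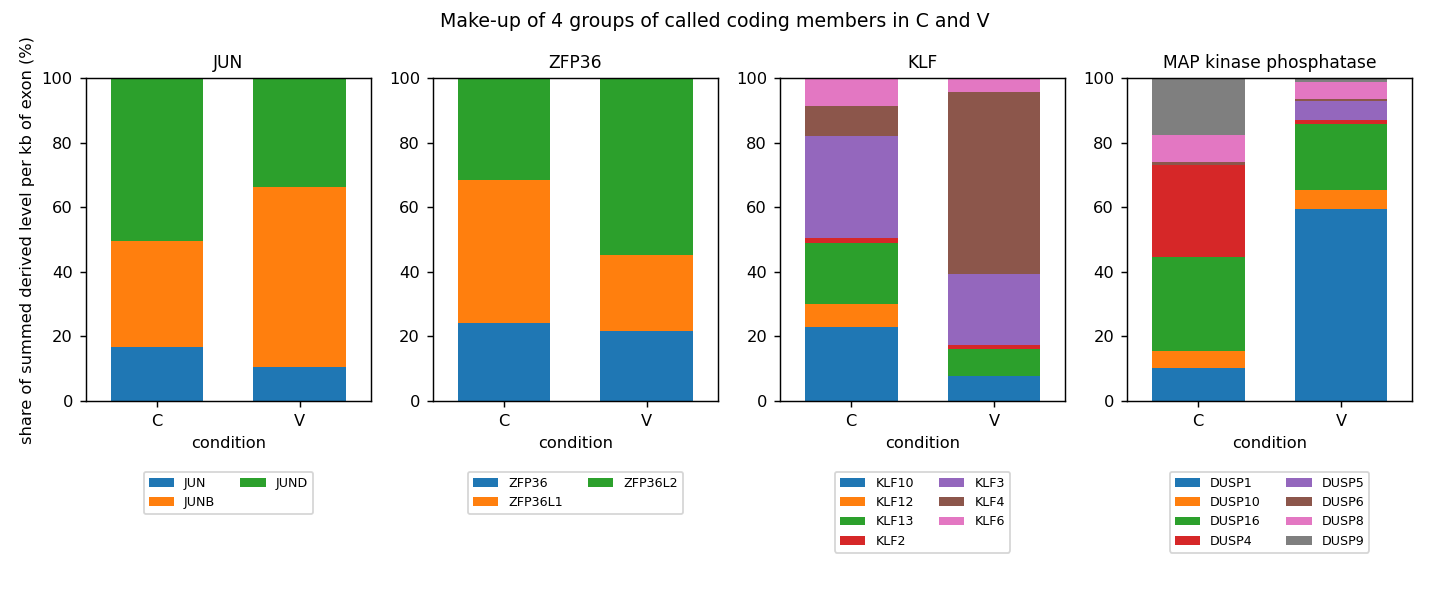
Share of each called protein-coding gene in its group's summed derived level per kilobase of exon, in percent, in C (left bar) and V (right bar), for the JUN, ZFP36 and KLF families and the 8 called MAP kinase phosphatase genes of the DUSP family. JUNB, ZFP36L2, KLF4 and DUSP1 take 33.0%, 31.5%, 9.26% and 10.3% of these groups in C, against 55.6%, 54.6%, 56.6% and 59.6% in V.

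The pathway around the members was read from 8 lists of genes that are not members. All called protein-coding genes had a median log2 fold change of -1.55, which pools both directions. Non-member protein-coding genes called higher in V had -2.35, the closer comparison for lists called wholly toward V. The medians of called genes were -3.55 for EGF family ligands, -1.64 for the RAS to ERK cascade, -3.24 for AP-1 partners, -2.67 for other immediate early genes and -2.13 for ERK output. They were -2.17 for the JNK and p38 cascades and, on the side of C, 1.64 for EGF and FGF receptors, from 3 genes each. For reading the counts, 14.8% of all protein-coding genes were listed. Of the listed ones, 61.0% were called higher in V and 31.6% higher in C. All 7 called EGF family ligands, of 11 in the list, were higher in V. TGFA, at 8.19 normalised counts in C and 67.9 in V, had -3.05 ± 0.41 in the authors' deposited table. BTC (-5.83 ± 1.25), HBEGF (-1.35 ± 0.30) and NRG4 (-4.90 ± 1.48) followed it by p in that table. Apart from TGFA, no called ligand had a derived level above 46.5 on either side. BTC (0.359) and NRG4 (0.169) lay below 1 normalised count in C, which leaves the size of their fold changes poorly determined. Most called ligands and several called AP-1 partners were below 1 in C, so the medians of these lists are poorly determined too. Of the 8 EGF and FGF receptors, 3 were called in the authors' deposited table, FGFR3 (2.20 ± 0.16) and FGFR4 (1.64 ± 0.30) toward C and FGFR2 (-2.01 ± 0.49) toward V. EGFR and ERBB2 were not listed.

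The cascades had 4 of 25 and 3 of 25 genes listed, shares near the 14.8% of all protein-coding genes that were listed. The 4 genes of the RAS to ERK cascade were all called higher in V: MAPK3, which encodes ERK1 (-1.79 ± 0.11), the ERK-activated kinase RPS6KA3 (-1.45 ± 0.10), RRAS (-1.50 ± 0.19) and the scaffold KSR1 (-2.87 ± 0.42) in the authors' deposited table. The 3 genes of the JNK and p38 list were all called. MAP2K6, a p38 kinase kinase, was higher in C, and the authors' deposited table lists it at 2.94 ± 0.19. The others, higher in V in that table, were MAP3K14 (-2.17 ± 0.12), best known as the kinase NIK of the noncanonical NF-kB pathway, and MAP3K8 (-3.12 ± 0.23), best known for activating MEK and ERK. None of the 9 genes for SRF, its ternary complex and MRTF partners and the CREB factors was listed.

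The next 3 lists stand beside the same shares: 14.8% listed, and of listed protein-coding genes 61.0% called toward V and 31.6% toward C. Other AP-1 partners had 7 called genes of 16, all higher in V. Among them in the authors' deposited table were ATF3 (-4.01 ± 0.10), MAFG (-1.25 ± 0.11) and MAFF (-3.74 ± 0.34). ATF3, a stress-induced factor, stood at 116 in C and 1863 in V. Other immediate early genes had 12 called of 19, 2 toward C and 10 toward V. Among those higher in V, ID1 (-2.79 ± 0.09), MCL1 (-1.51 ± 0.07), GADD45A (-3.65 ± 0.17) and PPP1R15A (-3.75 ± 0.19) came first by p, from the authors' deposited table. The 2 higher in C were MYC (1.42 ± 0.09), at 2910 in C and 1088 in V, and ARC (2.63 ± 0.31), at 56.0 in C and 9.05 in V. Genes often read as ERK output had 8 called of 15, 1 toward C and 7 toward V. PHLDA1 (4.35 ± 0.25), at 222 in C and 10.9 in V, was the one toward C, by the authors' deposited table. LIF (-3.06 ± 0.19), TRIB1 (-1.30 ± 0.10) and ERRFI1 (-1.39 ± 0.11) led the others by p, and CCND1, ETV1 and ETV4 were not listed.

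**Figure D4:**
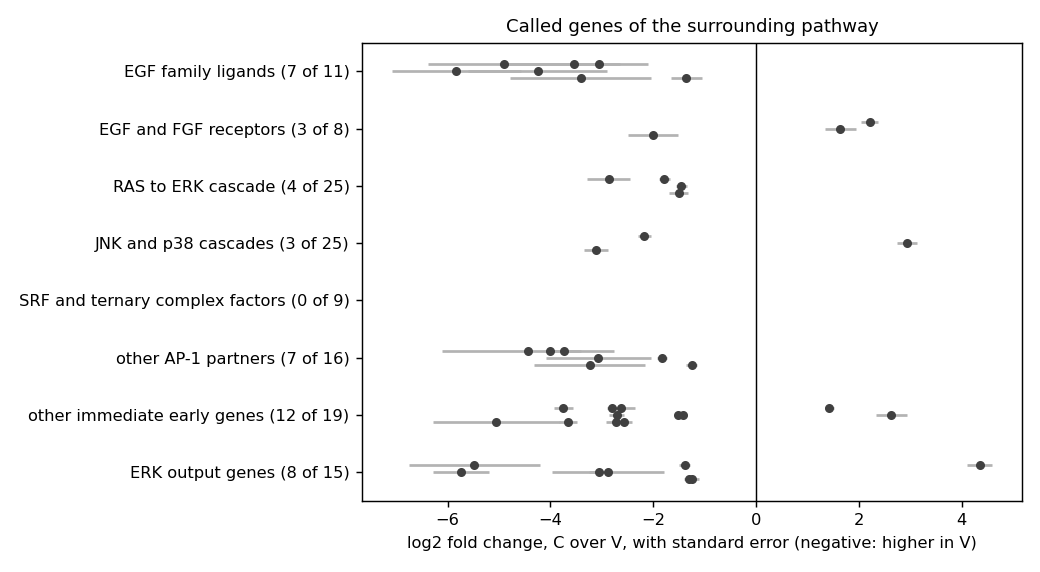
Listed log2 fold change of C over V with its standard error for every called gene of the 8 lists around the members; the count of called genes and the list's size stand after its name. The ligand, RAS to ERK and AP-1 partner lists lie wholly left of 0, and the receptor, JNK and p38, immediate early and ERK output lists have 2, 1, 2 and 1 genes right of it.

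Among the motifs searched, the CRE core had the widest gap in share between the promoters of members higher in V and all promoters. RefSeq windows were found for 27 of the 34 called protein-coding members, not for DUSP4, DUSP5, EGR3, KLF3, KLF10, NR4A2 and ZFP36L2, and a gene can have several windows. The CRE core TGACG, on either strand, was in 17 of the 27 windows of members higher in V (63.0%). It was in 27.9% of all 22199 windows of protein-coding genes and in 24.9% of those of other genes higher in V. The full CRE TGACGTCA, which contains the core, was in 4 windows (14.8%, against 2.26% of all), those of DUSP1, DUSP8, JUND and ZFP36L1. By gene, the core was present for 3 of 3 JUN genes, 3 of 3 FOS genes, 3 of 6 MAP kinase phosphatase genes, 2 of 5 KLF genes, 1 of 3 IER genes and 1 of 2 ZFP36 genes, and for the 1 gene each of EGR, NR4A and SPRY with a window. By gene it was present for 34.6% of all protein-coding genes. Neither of the 2 members higher in C with a window, KLF12 and DUSP9, had it.

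The other motifs had smaller gaps. The GC box GGGCGG was in 77.8% of the members' windows, against 56.3% of all, beside a median GC content of 69.3% against 62.3%; whether base composition accounts for the motif shares was not tested. TATAAA was in 14.8% against 9.47%, and the CArG box (CC, 6 bases of A or T, then GG) in 3.7% against 1.25%, the 1 window being that of EGR1. The AP-1 motif TGANTCA was in 3.7% of the members' windows, against 6.15% of all and 8.76% of those of other genes higher in V. The ETS motif CCGGAAG was in 3.7% against 12.8% of all and 5.84% of those of other genes higher in V. The EGR motif GCGTGGGCG and an NF-kB motif were in none, against 1.05% and 1.94% of all. All searches used both strands, and a match describes these letters in this window only.

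**Figure D5:**
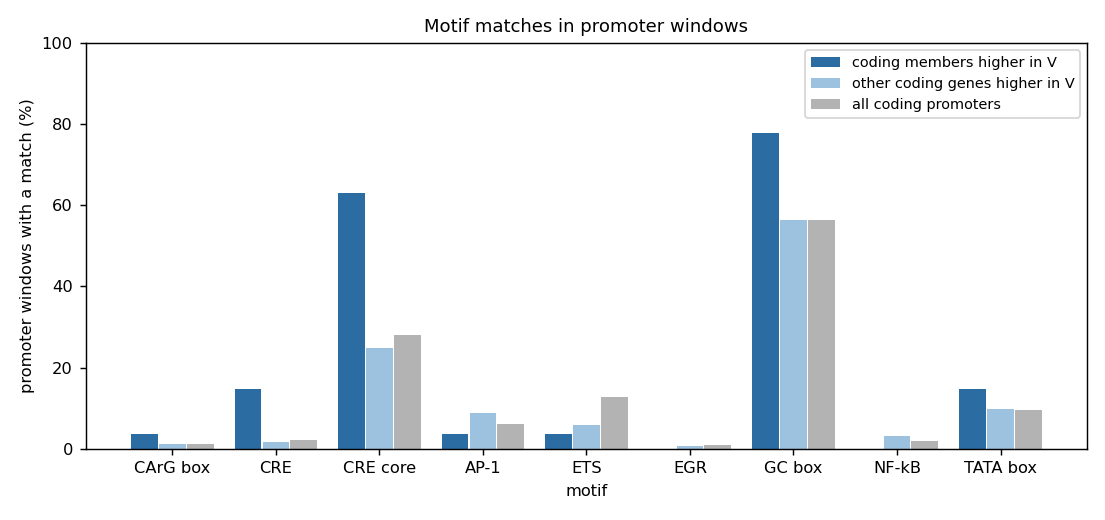
Share of promoter windows with at least 1 match to each motif, in percent, for protein-coding members called higher in V (27 windows), other protein-coding genes called higher in V (2021 windows) and all protein-coding genes (22199 windows). The CRE core stands at 63.0%, 24.9% and 27.9%.

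Members higher in V were shorter genes with fewer exons than other protein-coding genes higher in V. AU-rich sites of the kind that ZFP36 proteins bind were counted in their messages as well. Their median length on the genome was 7.12 kb, against 28.2 kb for other protein-coding genes higher in V, and their median exon count, taken from the transcript with most exons, was 3 against 9. JUN, JUNB, JUND, IER5 and IER5L have 1 exon. The ZFP36 site TATTTAT was present in the longest annotated 3′ untranslated region of 16 of the 31 members higher in V (51.6%). It was present for 2 of the 3 members higher in C, with 4 sites in DUSP4 and 1 in KLF12. It was present for 36.1% of other genes higher in V and 30.9% of all protein-coding genes. The regions of members higher in V were also longer, with a median of 1917 bases, against 1285 for other genes higher in V and 1083 for all protein-coding genes. Per kilobase the site occurred 0.534 times in the members higher in V and 0.356 and 0.319 times in the other groups. ZFP36, ZFP36L1 and ZFP36L2 have 3 such sites each, as does DUSP1, and JUNB, KLF4 and EGR1 have none.

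Markers of the line and of other cells were read for the whole table. Of 9 prostate luminal markers, 3 were listed, and the authors' deposited table puts KLK3 (2.17 ± 0.07) and KLK2 (2.59 ± 0.08) on the C side and KRT8 (-1.45 ± 0.10) on the V side. Of 6 leukocyte markers, 4 were listed and 3 called, all higher in V. Derived levels of the 4 listed, the uncalled one included, summed to 1.56 normalised counts in C and 66.2 in V. Of 7 fibroblast and endothelial markers, 3 were called, 1 toward C and 2 toward V, with sums of 82.7 in C and 312 in V. CD3E, CDH5 and VWF were not listed. The part of other cells in the members' direction was not tested.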

How the data were processed

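The labels assign 3 libraries to C42-B-Abi and 3 to C42B, made from 1 µg of total RNA and read as 50 bp single ends. Per the labels' protocols, 2 kits were involved, TruSeq V2 and TruSeq Stranded Total RNA, and their division over libraries is not stated. Separate cultures are not mentioned, so p-values measure only how these libraries scatter, a spread that may be technical.

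One table was used, the authors' DESeq2 comparison of C with V. The mean of normalised counts is a signal value over all samples, the log2 fold change is a maximum likelihood estimate, and the standard error and Wald statistic are score columns, all made by the authors, per the file headers. The p-value and its Benjamini-Hochberg adjustment are the authors', per the file headers. The submitters' processing notes name FastQC and Cufflinks 2.2.1, with no role. For aligner, counter and build, the record is: not given in the sources used here. The table held 0 columns of values per library, so no test across libraries was run and the design's rule for such a table was followed: listed values, with no own test. Reads per gene are unknown beyond the listed mean.

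The Wald statistic equalled fold change over error within 1% for 6018 of 6018 genes. An adjusted p of 0 beside a p above 0 (4 genes, no member) was read as not given. Gene types, positions and exon lengths came from GENCODE release 29 (GRCh38), which need not be the authors' annotation; all 37 members matched it by identifier and symbol. Simulated data were used only to check the code for derived levels and the motif search. They did not test the assumption of equal numbers of libraries behind the derived levels. Python 3.11.15, pandas 2.3.3, scipy 1.17.1 and matplotlib 3.10.9 were used. Named genes are all listed members and, for each list, the 4 called genes with the smallest p plus any in the minority direction; a gene of the lists that this rule would name is not reported here. Members, lists and motifs were chosen with earlier results of these data known. No table of proteins was used here.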

Additional observations from a re-analysis of the deposited data

How the results depend on the processing

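Recomputed summary values stayed near the reported one in 33 cases and moved in 15, family counts did so in 58 and 12, and none changed sign. The limit for near differed between kinds of value, so these totals do not measure stability. A fall of the CRE core share from 63.0% to 55.6% counted as near, and one of the called share from 61.0% to 54.4% as moved. The count of members higher in V, 32 as reported, was 20 when a log2 change of 2 in either direction was required and 21 when the mean had to reach 100 normalised counts, and the median log2 fold change of called members, -2.39, was -3.05 and -1.88 there. The members higher in C stayed within 1.5 times of 3, and the families with all called members higher in V within 1.5 times of 7, under every setting run. At a mean of 100 the latter count was 5 and the families were not the same. KLF entered there because KLF12, with a mean of 64.2, dropped out, and EGR, NR4A and SPRY had no called member left. The share of listed protein-coding genes called higher in V, 61.0%, was 54.4% at an adjusted p under 0.01, 36.0% where the log2 change reached 2, 26.5% and 49.2% where the mean reached 100 and 10, 49.0% with the interval beyond a log2 of 1, and 65.3% at an unadjusted p under 0.05; stricter rules lower it by construction. Median derived levels of protein-coding members higher in V, 64.5 in C and 276 in V, were 55.1 and 248 with weights of 2 for C and 3 for V, and 71.6 and 312 with the weights exchanged. The AP-1 share was 0.0% in the 200 bases before the start and 3.7% in the longer window. The EGR, NR4A and SPRY counts were 0 at a mean of 100, so these families rest on few reads. No paired analysis was possible because the table has no column per library, and for the same reason leaving out a library, a count model and other normalisations were not run.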

Other observations

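The genes beside the protein-coding members, called or not and of either direction, were mostly not listed. The same holds for protein-coding genes at large, of which 14.8% were listed. Of the 34 called protein-coding members, 6 lie on chromosome 19 (JUNB, IER2, KLF2, JUND, ZFP36 and FOSB) and no other chromosome holds more than 3. The share of all protein-coding genes on chromosome 19 was not counted. In GENCODE release 29, 71 protein-coding genes that are not members lie next to one. Of these, 65 were not listed and 1 (1.41%) was called higher in C, against 4.68% of all 19951 protein-coding genes of the annotation. Another 5 (7.04%) were called higher in V, against 9.03% of all. The 5 are HHIPL2, KITLG, PLB1, MR1 and IQCN, named after their values were seen. The gene called higher in C is REEP2, which lies 18.5 kb from EGR1 and had 2.13 ± 0.55 in the authors' deposited table. KITLG, the ligand of the receptor KIT and the neighbour of DUSP6 at 766 kb, had -4.09 ± 0.22 in that table.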
